A study of Homo sapiens with 4 samples.

Results

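The 32 genes described here belong to the transcriptional response to amino acid shortage: the transcription factor ATF4, genes known as its targets, 12 cytosolic aminoacyl-tRNA synthetases and the tRNA exporter XPOT. They were taken by symbol from a list of known ATF4-program genes. The rule uses no measured value, although the list was chosen with earlier results of these data known. All 32 were found among the 29387 genes listed in all 4 libraries, and 31 had enough counts to be tested. The cells were U87MG, an established human glioblastoma line. All populations came from parental cells grown in medium with 10% FBS and 1% L-glutamine and then kept for 1 week on organotypic brain slices (living brain sections in culture) in FGF- and EGF-supplemented neural stem cell medium. Highly invasive populations (brain invasive clones 1 and 2) and poorly invasive populations (control 1 and control 2) were isolated from those slice cultures and expanded in vitro for 3 to 5 days, so no group was kept off the slices. No genetic change or drug distinguishes the groups in the labels, and no source used here names the medium of the expansion. Each population gave 1 mRNA library, and the series pairs control 1 with invasive 1 and control 2 with invasive 2. With 1 library per population, p-values measure the spread between these 4 libraries only.

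When uncharged tRNAs accumulate, the kinase GCN2 phosphorylates the translation initiation factor eIF2. General translation then slows while translation of the ATF4 mRNA rises, so ATF4 activity is set largely at the protein level and is read in mRNA data mainly through its targets. ATF4 pairs with C/EBP-family partners on composite DNA elements and raises genes for amino acid synthesis, amino acid import, mitochondrial one-carbon metabolism and tRNA charging, together with feedback inhibitors such as TRIB3. Other eIF2 kinases feed the same factor from endoplasmic reticulum stress, viral RNA or heme shortage, and growth signalling through mTORC1 can raise it as well.

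The libraries held 13829871 to 17817756 counts, and 3 counts corresponded to 0.168 to 0.217 CPM (counts per 1000000 counts). The labelled cell type was checked on its markers. Summed levels of VIM, CD44, NES, SPARC and FN1 were between 13150 and 15428 CPM, and CDKN2A, CDKN2B and MTAP, which lie in a region known to be deleted in U87MG, had at most 2 counts in any library. The astrocyte markers AQP4 and GJB6, the oligodendrocyte marker MOG, the microglial marker P2RY12 and the endothelial marker CLDN5 were at 0 counts in every library, and GFAP had 2 to 4. Other markers on these lists were expressed. The astrocyte marker SLC1A3 had 297 to 594 counts, the neuron markers SNAP25 and GAD1 had 364 to 622 and 212 to 300, and CSF1R had 140 to 379. The microglial marker TMEM119 had 39 counts in control 1 and 221 in invasive 1, with 48 in control 2 and 99 in invasive 2. Of the whole lists, 3 of 6 astrocyte, 3 of 7 neuron, 4 of 6 oligodendrocyte, 3 of 6 microglial and leukocyte and 1 of 5 endothelial markers stayed at 3 counts or fewer in every library. The summed levels were 23.7 to 40.9 CPM for the astrocyte list, 52.9 to 62.6 for neurons, 0.973 to 1.60 for oligodendrocytes, 14.5 to 32.3 for microglia and leukocytes and 1.49 to 3.81 for endothelium. As these are bulk libraries, a smaller share of cells expressing a gene cannot be told apart from less RNA per cell. Control 2 stood apart by inflammatory transcripts: IL1B was at 573 CPM there against 12.0 to 29.6 in the other libraries, and CSF3 at 908 against 12.7 to 26.2.

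The core of a DNA element through which ATF4 acts is shown first, for the members whose promoter windows held it. The RefSeq windows from 250 bases before to 50 after each start site (GRCh38.p14) were searched for the C/EBP-ATF core TGATGNAA on both strands. It was found in 9 of the 26 members that had a window. The 9 matches follow, each read 5′ to 3′ on the strand where the core reads as written, with the core in capitals and 11 bases on either side.
CHAC1, chr15:40953251-40953280, minus strand: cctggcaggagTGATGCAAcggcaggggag
ASNS, chr7:97872458-97872487, minus strand: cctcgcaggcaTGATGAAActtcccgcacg
AARS, chr16:70289675-70289704, plus strand: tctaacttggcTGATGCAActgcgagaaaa
CARS, chr11:3057407-3057436, plus strand: ttcctagaatcTGATGCAAccgccgccccg
GARS, chr7:30594834-30594863, minus strand: ggctcggagcaTGATGAAAtcgccgcgtaa
IARS, chr9:92293692-92293721, plus strand: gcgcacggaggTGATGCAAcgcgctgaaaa
MARS, chr12:57488053-57488082, minus strand: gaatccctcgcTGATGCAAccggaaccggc
NARS, chr18:57621804-57621833, minus strand: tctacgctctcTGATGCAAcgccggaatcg
TARS, chr5:33440956-33440985, minus strand: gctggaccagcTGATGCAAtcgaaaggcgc

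The core was present in 7 of the 10 tRNA synthetase members that had a window (70% of them) and in 2 of the 16 other members (12.5%). By comparison it occurred in 3.62% of all 35116 windows of that length. Counted by gene, as for the members, it occurred in 4.46% of all 27305 genes with a window and in 2.94% of the 10654 tested ones. A gene counted if any of its windows held the core. ASNS, CARS, GARS and TARS each had 2 windows, with the core in 1 of them. None of the 9 windowed genes among the other cytosolic synthetases and their scaffold proteins held it, whereas 4 of 9 windowed genes among other known ATF4 targets (44.4%) and 4 of 8 ATF4-driven amino acid transporters (50%) did. The core was also found in 1 of 6 windowed genes among other folate enzymes (16.7%) and 1 of 14 among mitochondrial synthetases (7.14%). It was found in 1 of 13 among eIF2 kinases, phosphatase subunits and eIF2B (7.69%). Among endoplasmic reticulum stress targets of ATF6 and XBP1 it was in 1 of 13 (7.69%), HERPUD1. In the synthetase members the core lay close to the start site in all but AARS: its first base was at −33 in GARS, −13 in IARS, −4 in MARS, −2 in CARS, +3 in TARS and +15 in NARS, counted with +1 as the first transcribed base. In ASNS it began at −68, in AARS at −187 and in CHAC1 at −209. A match describes letters in the window and not a bound site. A miss does not show that a gene lacks the element, as only this core and these windows were searched. EIF4EBP1, PSPH, SHMT2, ALDH1L2, LARS and YARS had no window. Among tested members the median log2 fold change, invasive against control, was 0.17 for the 9 with the core, of which 6 were above 0. It was 0.00 for the 16 windowed members where no core was found in the window, of which 8 were above 0. Within the synthetase members it was 0.10 for the 7 with the core (4 above 0) and 0.05 for the 3 without (2 above 0). The 2 other members with the core were CHAC1 (0.98) and ASNS (0.38), and the 13 others without it had a median of −0.01 (6 above 0). A link between the core and the fold change was not tested.

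**Figure D1:**
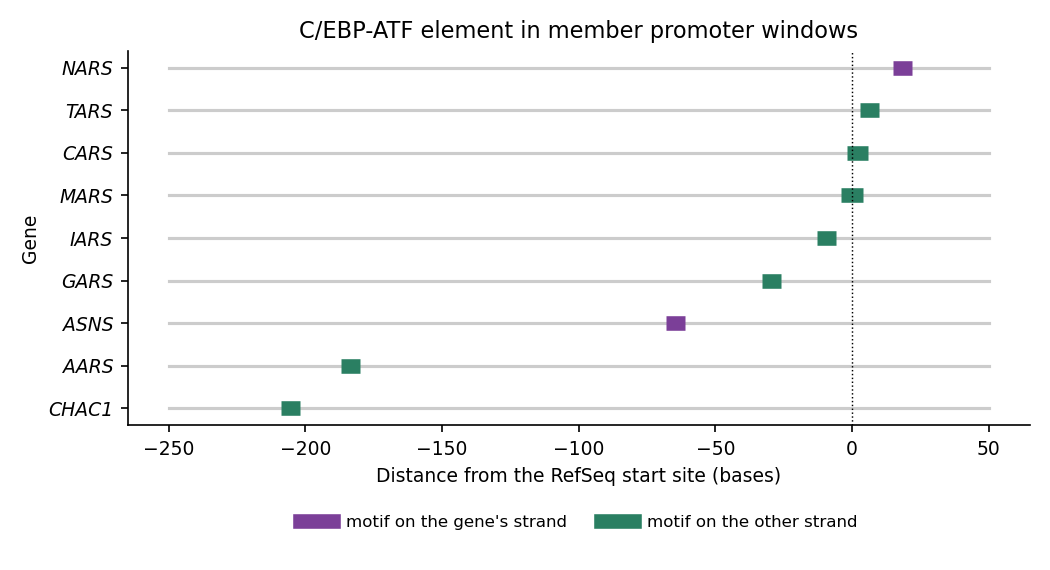
Position of the C/EBP-ATF core in the 9 member promoter windows that hold it, in bases from the RefSeq start site (dotted line), with grey bars marking the window searched and colour marking the strand of the core. Of the 7 synthetases, 6 have the core near the start site, from −33 in GARS to +15 in NARS, whereas AARS has it at −187 and CHAC1 at −209.

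The median member was at the level of the median gene in the comparison of invasive with control populations. In the blocked edgeR fit (a quasi-likelihood test that compares within pairs), 1 of the 31 tested members (ALDH1L2) was higher in invasive cells at an adjusted p of 0.05, where 0.239% of all 14231 tested genes were, and 0 were lower, where 0.0351% of all genes were. DESeq2 also called 1 member higher and 0 lower, where it called 142 genes higher and 29 lower over all genes. At an unadjusted threshold of 0.05, 5 members were higher (ALDH1L2, CHAC1, PHGDH, AARS and WARS; background 9.82%) and 2 were lower (PSPH and NARS; background 8.41%). The median log2 fold change was 0.01 for the members and 0.01 for all genes. Both invasive libraries lay above both controls for 5 members and below both for 5, against backgrounds of 21.8% and 21.6%. In pair 1 the members summed to 4134 CPM in the control and 3845 in the invasive library, and in pair 2 to 4392 and 4577.

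**Figure D2:**
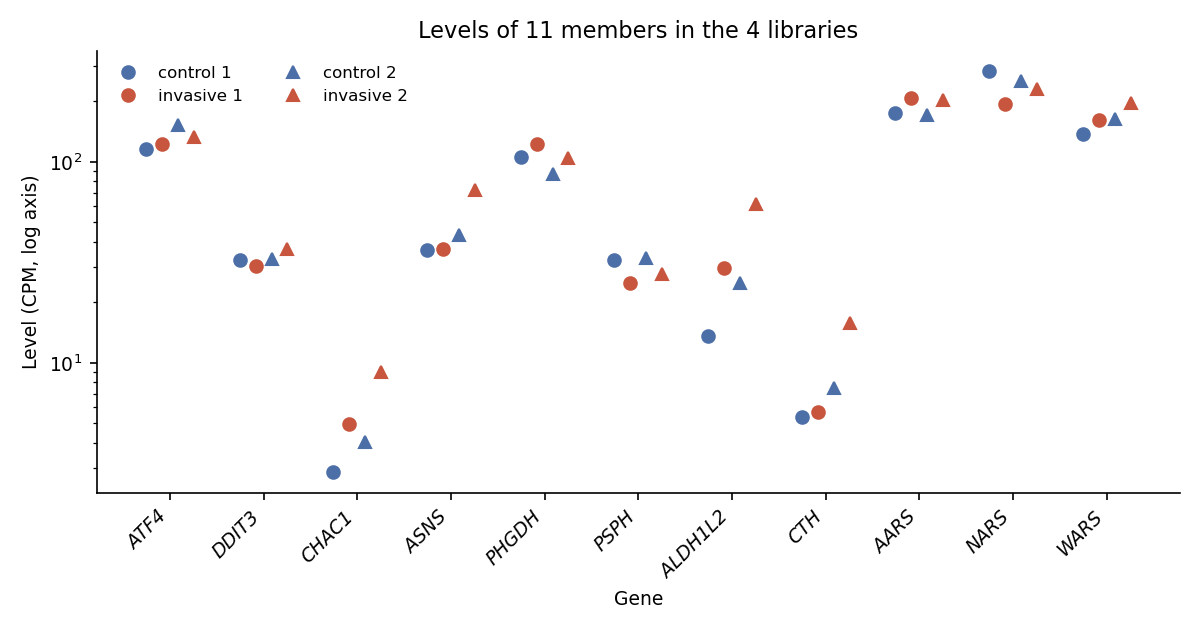
Level in each library (TMM-scaled CPM, log axis) of 11 members, those of the naming rule (CEBPB, also given by library in the text, is not drawn), with circles for pair 1, triangles for pair 2, blue for controls and red for invasive populations. ALDH1L2 and CHAC1 are above both controls in both invasive libraries, while ATF4 and DDIT3 overlap between groups; ASNS and CTH are high in invasive 2 alone.

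No transcription factor of the program passed the test. ATF4, the factor itself, was at 116 CPM in control 1 and 122 in invasive 1, with 152 in control 2 and 132 in invasive 2. The groups overlapped, and the pairs differed in sign (log2 differences of 0.07 and −0.20). Its log2 fold change was −0.07 ± 0.11 (SE; edgeR adjusted p = 0.785). DDIT3, which encodes the stress factor CHOP, was at 32.4 and 30.4 CPM in control 1 and invasive 1 and at 32.8 and 36.9 CPM in control 2 and invasive 2, a log2 fold change of 0.04 ± 0.12 (adjusted p = 0.902). DDIT3 shares 355 exon bases with MARS and 58 with MBD6 on the opposite strand, and no source used here says if reads were counted by strand. CEBPB, a C/EBP partner that is also induced by inflammatory signals, was at 140.3 CPM in control 2 against 55.3 in control 1, 62.1 in invasive 1 and 89.8 in invasive 2. Its log2 fold change was −0.25 ± 0.22 (adjusted p = 0.607). Control 2 is the library with high IL1B and CSF3, and their part in the CEBPB level was not tested.

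Among the feedback and growth regulators, CHAC1 had the widest difference. CHAC1, which degrades glutathione and is a sensitive ATF4 target, had 50 counts in control 1 and 77 in invasive 1, with 62 in control 2 and 124 in invasive 2, or 2.85, 4.93, 4.02 and 8.96 CPM. Both invasive libraries lay above both controls. The log2 fold change was 0.98 ± 0.24, which missed the threshold (adjusted p = 0.134), with 0.77 in pair 1 and 1.13 in pair 2. The other 4 of this group had fold changes close to 0. TRIB3, a pseudokinase that restrains ATF4, had a log2 fold change of 0.01 ± 0.22. SESN2, which signals leucine shortage to mTORC1, had 0.16 ± 0.13. DDIT4, another inhibitor of mTORC1, had −0.01 ± 0.14, and EIF4EBP1, the repressor of cap-dependent translation, had −0.03 ± 0.10. All 4 were lower in invasive 1 than in control 1 and higher in invasive 2 than in control 2. DDIT4 shares 847 of its 2058 exon bases with an antisense gene.

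None of the 4 asparagine and serine synthesis genes passed the adjusted threshold. ASNS, asparagine synthetase and a classical ATF4 target, was at 36.3 CPM in control 1 and 36.6 in invasive 1, with 43.1 in control 2 and 72.1 in invasive 2. The first 3 libraries were close together and invasive 2 stood above them. The log2 fold change was 0.38 ± 0.19 (adjusted p = 0.350), made of 0.01 in pair 1 and 0.74 in pair 2. ASNS shares 1985 of its 4455 exon bases with AC079781.5 on the same strand, and how reads there were counted is not known. PHGDH, which commits glycolytic carbon to serine, was at 105.5 CPM in control 1 and 122 in invasive 1, and at 86.6 in control 2 and 105 in invasive 2. It was higher in the invasive library of each pair by a similar amount (0.21 and 0.27), although control 1 reached the level of invasive 2. Its log2 fold change was 0.24 ± 0.09 (adjusted p = 0.243). PSPH, which completes serine synthesis, went the other way, at 32.6 CPM in control 1 and 24.9 in invasive 1, with 33.1 in control 2 and 27.7 in invasive 2. Both invasive libraries lay below both controls, with a log2 fold change of −0.32 ± 0.12 (adjusted p = 0.230). PSPH has a closely similar pseudogene copy, so its counts are uncertain. PSAT1, the transaminase between these steps, was 0.35 log2 units lower in invasive 1 than in control 1 and 0.34 higher in invasive 2 than in control 2, giving −0.01 ± 0.18.

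ALDH1L2 was the member that rose. This gene (ENSG00000136010) encodes the mitochondrial 10-formyltetrahydrofolate dehydrogenase, which releases one-carbon units as carbon dioxide while making NADPH. It had 238 counts in control 1 and 461 in invasive 1, with 386 in control 2 and 855 in invasive 2, or 13.5, 29.5, 25.0 and 61.8 CPM. Both invasive libraries lay above both controls, and invasive 1 was close to control 2. The group means were 19.3 ± 8.1 CPM in controls and 45.7 ± 22.8 in invasive populations (SD, n = 2 each). The log2 fold change was 1.22 ± 0.12, a 2.33-fold difference (edgeR adjusted p = 0.0314), with 1.12 in pair 1 and 1.30 in pair 2. The call depended on the pairing, and the fits with 1 library left out had no replicate block either. With all libraries and no replicate block the log2 fold change was 1.24 with an edgeR adjusted p of 0.457. With any 1 library left out it ranged from 0.62 without invasive 2 (0.86 without control 1) to 1.74 without control 2 (1.67 without invasive 1), at adjusted p from 0.355 to 0.804. Of the 8507 exon bases, 145 are shared with C12orf45 on the opposite strand, whose own log2 fold change was −0.29 ± 0.19. The enzymes upstream of ALDH1L2 in the mitochondrial folate pathway had fold changes close to 0: SHMT2, which takes the one-carbon unit from serine, had −0.05 ± 0.10, and MTHFD2, which oxidises it, had −0.09 ± 0.09.

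The remaining metabolic members concern cysteine, gluconeogenesis and lipoprotein uptake. CTH, which releases cysteine in transsulfuration, was at 5.35 CPM in control 1 and 5.70 in invasive 1, with 7.46 in control 2 and 15.8 in invasive 2. Invasive 2 alone stood apart, and the log2 fold change was 0.62 ± 0.28 (adjusted p = 0.302), with 0.09 in pair 1 and 1.07 in pair 2. CBS, the enzyme before it, had 1 to 3 counts per library on its main row and 0 on a second row, at or under 3 counts, so it was not tested and no fold is given. The 2 CBS rows are near-identical copies, and reads matching both may not have been counted, so its level is uncertain. PCK2, the mitochondrial phosphoenolpyruvate carboxykinase, had a log2 fold change of 0.08 ± 0.24. VLDLR, a lipoprotein receptor, had −0.04 ± 0.11.

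The 12 tRNA synthetases, the enzymes that attach amino acids to their tRNAs, lay on both sides of 0 by small amounts. None passed the adjusted threshold in the main edgeR fit, or in DESeq2. At an unadjusted threshold of 0.05, 2 were higher (AARS and WARS, background 9.82%) and 1 was lower (NARS, background 8.41%). Their log2 fold changes ran from −0.34 to 0.25 with a median of 0.04. AARS, for alanine, was at 174 CPM in control 1 and 208 in invasive 1, with 171 in control 2 and 204 in invasive 2. The libraries of each group were close together and did not overlap with the other group, and the log2 fold change was 0.25 ± 0.10 (adjusted p = 0.240). WARS, for tryptophan and also induced by interferon, was at 137 and 162 CPM in control 1 and invasive 1 and at 164 and 197 CPM in control 2 and invasive 2. It was higher by a like amount in each pair (0.24 and 0.26), and control 2 reached the level of invasive 1. Its log2 fold change was 0.25 ± 0.09 (adjusted p = 0.239). NARS, for asparagine, was at 284 CPM in control 1 and 194 in invasive 1, with 252 in control 2 and 230.3 in invasive 2. Both invasive libraries lay below both controls, by 0.55 log2 units in pair 1 and 0.13 in pair 2, and the log2 fold change was −0.34 ± 0.13 (adjusted p = 0.241). Both AARS and NARS carry the core printed above, so genes with it lay at both ends of the range.

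The other 9 synthetases had log2 fold changes of 0.20 for CARS (cysteine), 0.17 for GARS (glycine), 0.10 for MARS (methionine), 0.05 for SARS (serine), 0.03 for YARS (tyrosine), −0.02 for EPRS (glutamate and proline), −0.11 for TARS (threonine), −0.16 for IARS (isoleucine) and −0.21 for LARS (leucine). Their standard errors were between 0.09 and 0.12. In CARS and MARS both invasive libraries lay above both controls, and in LARS and TARS both lay below. With AARS and NARS counted, this made 3 of the 12 synthetases above and 3 below (background 21.8% and 21.6%). The synthetases' summed level was 2890 CPM in control 1 and 2652 in invasive 1, with 3017 in control 2 and 3178 in invasive 2. XPOT, which exports tRNA from the nucleus, had a log2 fold change of −0.18 ± 0.10 (adjusted p = 0.364) and was lower in the invasive library of both pairs. MARS shares exon bases with DDIT3 and ARHGAP9, and WARS with WDR25, all on the opposite strand. Such an overlap was found for 13 members, among them MTHFD2, which shares 1324 of its 4870 exon bases with SLC4A5. On the same strand, 3 members (ASNS, DDIT3 and MARS) share exon bases with another gene.

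Synthetases outside the list were set beside them. The 8 other cytosolic synthetase genes and 3 scaffold proteins of the multisynthetase complex had a median log2 fold change of −0.16, with 11 of 11 below 0, where 6997 of all 14231 tested genes were. Of the 11, 0 were called in either direction, and 0 were higher and 5 lower at an unadjusted threshold of 0.05 (background 9.82% and 8.41%). FARSB, a subunit of the phenylalanine enzyme, had −0.33 ± 0.09 (edgeR adjusted p = 0.164). EEF1E1, a scaffold protein, had −0.57 ± 0.17 (adjusted p = 0.183), and DARS, for aspartate, had −0.35 ± 0.11 (adjusted p = 0.197). KARS at −0.28 and AIMP1 at −0.28 were the other 2, named after their values were seen. The 17 mitochondrial synthetases had a median of −0.14, with 2 above 0 and 15 below, 0 called, and 0 higher and 2 lower (IARS2 at −0.28 ± 0.10 and MARS2 at −0.45 ± 0.16) at the unadjusted threshold. By comparison the median over all genes was 0.01 and over the 12 synthetase members 0.04. The difference between these lists was not tested.

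**Figure D3:**
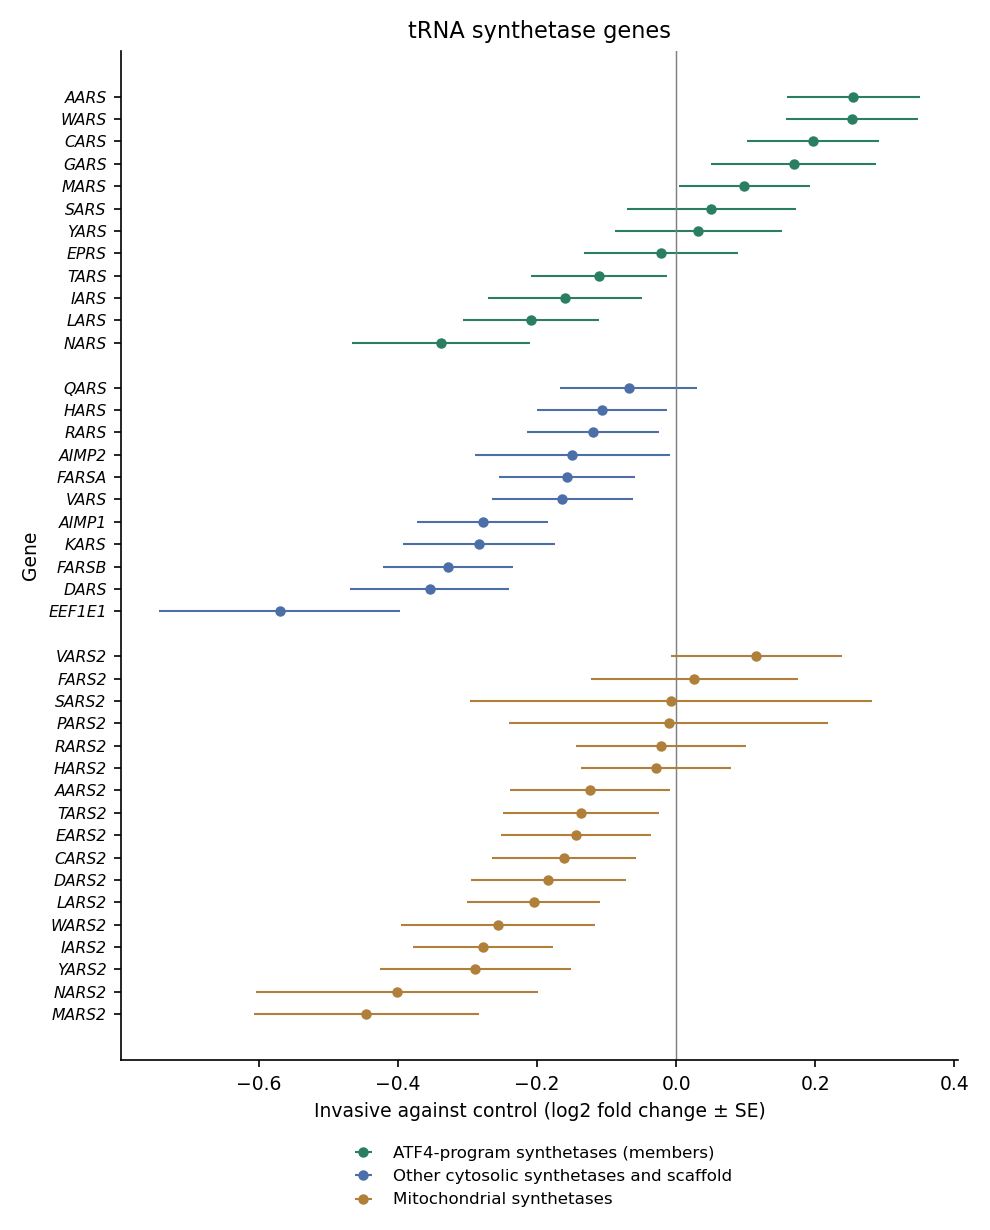
Log2 fold change, invasive against control (point, with a bar of 1 SE), for the 12 synthetase members (green), the 11 other cytosolic synthetase and scaffold genes (blue) and the 17 mitochondrial synthetases (brown). The green points lie from −0.34 to 0.25 on both sides of 0, whereas all 11 blue points and 15 of 17 brown points are below 0.

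The pairs differed in how the members stood. The median log2 difference of the members, invasive minus control, was −0.09 in pair 1 and 0.21 in pair 2, where the median over all genes was 0.00 and 0.01. The difference was larger in pair 2 than in pair 1 for 25 of 31 members, against 50.4% of all genes. It was above 0 in both pairs for 9 members, below 0 in both for 7 and of opposite sign for 15, against 33.4%, 31.9% and 34.7% of all genes. A 2-fold or larger difference was seen in pair 1 for ALDH1L2 alone (background 3.02% higher and 0.97% lower), and in pair 2 for ALDH1L2, CHAC1 and CTH, all higher (background 4.31% higher and 2.07% lower). A pair has 1 library per group, and the difference between the pairs leaves no residual degree of freedom, so it was not tested. In the pair term of the fit, which compares pair 2 with pair 1 over both groups, 0 members passed the adjusted threshold (background 0.0984%), while 10 were higher (background 7.24%) and 3 lower (background 7.58%) in pair 2 at the unadjusted one. None of these 13 passed the adjusted threshold. ALDH1L2 was 0.98 ± 0.12 log2 units higher in pair 2 (edgeR adjusted p = 0.0724), GARS 0.57 ± 0.12 (adjusted p = 0.157) and TRIB3 1.02 ± 0.22 (adjusted p = 0.164). SESN2 was 0.54 ± 0.13 higher (adjusted p = 0.181), CTH 0.99 ± 0.28 (adjusted p = 0.225) and CEBPB 0.94 ± 0.22 (adjusted p = 0.232). CHAC1 (0.70), ASNS (0.61), MTHFD2 (0.30) and WARS (0.27) were also higher. Those lower in pair 2 were DDIT4 (−0.39 ± 0.14), SHMT2 (−0.29 ± 0.10) and PHGDH (−0.25 ± 0.09).

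**Figure D4:**
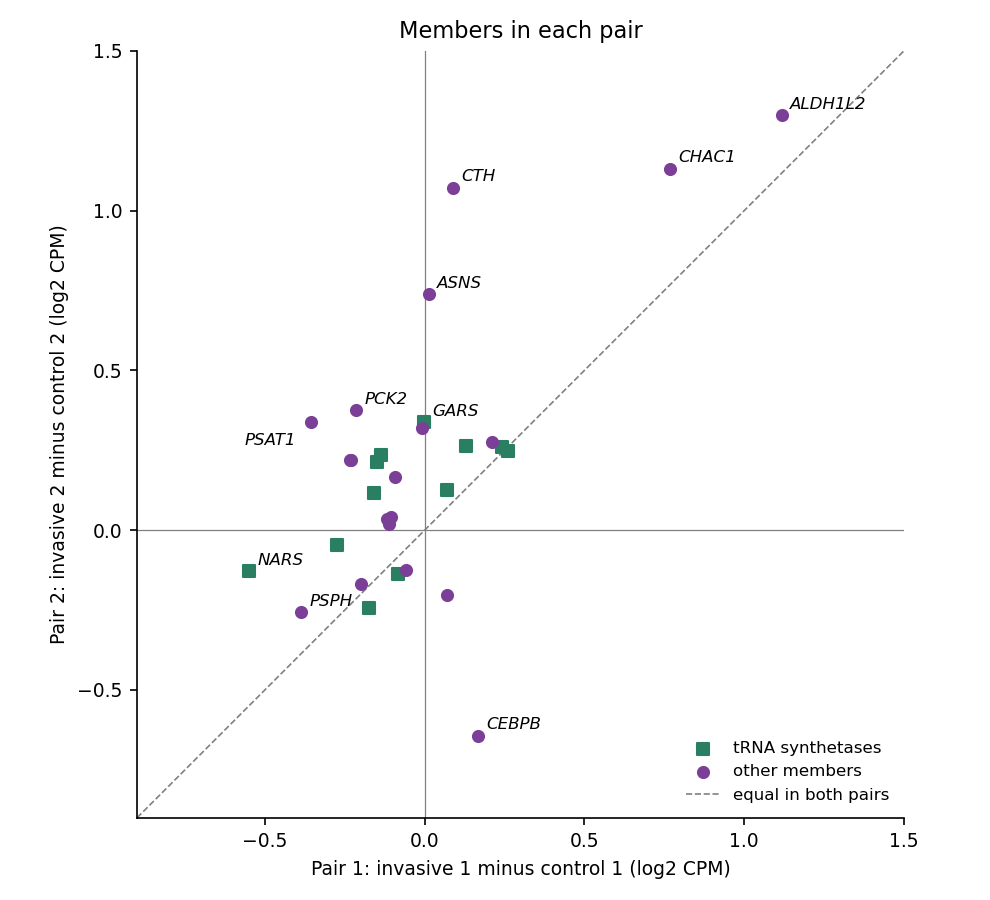
Log2 CPM difference, invasive minus control, of each of the 31 tested members in pair 1 (horizontal) and pair 2 (vertical), with squares for the 12 tRNA synthetases and circles for the other 19. Points above the dashed line, 25 of 31, have the larger difference in pair 2; ALDH1L2 is at 1.12 and 1.30, ASNS at 0.01 and 0.74, and CEBPB at 0.17 and −0.64.

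Levels between genes were compared per kilobase of exon (mean CPM per kb over the 4 libraries). The synthetases IARS (94.1), GARS (75.0), NARS (58.6) and SARS (57.2) were the most abundant members, followed by ATF4 (52.0) and EIF4EBP1 (51.1). At the low end were PCK2 (1.69), TRIB3 (2.26), CHAC1 (2.52), CTH (3.56) and ALDH1L2 (3.82). Of the 5 members with the lowest level per length, ALDH1L2, CHAC1 and CTH had the 3 highest log2 fold changes among the members, and PCK2 and TRIB3 had fold changes near 0.

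Other genes known as ATF4 targets were described from a separate list of 12, of which 11 were tested. STC2, which encodes the secreted glycoprotein stanniocalcin 2, rose. It was at 171 CPM in control 1 and 336 in invasive 1, with 179 in control 2 and 467 in invasive 2, with both invasive libraries well above both controls, and its log2 fold change was 1.18 ± 0.13 (edgeR adjusted p = 0.0337). With no replicate block, which the fits with 1 library left out also lacked, its edgeR adjusted p was 0.171. It kept its call without invasive 1 (adjusted p = 0.0259) and lost it without control 1 (0.0609), without control 2 (0.222) and without invasive 2 (0.153). STC2 was the 1 call among the 11 (background 0.239% higher); 6 were higher and 0 lower at an unadjusted threshold of 0.05 (background 9.82% and 8.41%). The list's median log2 fold change was 0.53, against 0.01 over all genes, with 9 above 0 in both pairs (background 33.4%) and 2 below 0 in both (background 31.9%). JDP2, a partner of AP-1 and C/EBP factors, had 0.70 ± 0.18 (adjusted p = 0.146), and GDF15, a secreted stress cytokine, had 0.50 ± 0.12 (adjusted p = 0.130). The GDF15 value was 0.03 without control 1, −0.02 without invasive 2 and 1.09 without control 2. The list was drawn up with earlier results of these data known, so its direction is a description.

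Of 9 amino acid transporters driven by ATF4, 0 passed the adjusted threshold in the main edgeR fit, and 2 were higher and 0 lower at the unadjusted one (background 9.82% and 8.41%). The log2 difference was above 0 in both pairs for 5 genes (background 33.4%) and of opposite sign for 4 (background 34.7%). Their median difference (log2 CPM) was 0.03 in pair 1 and 0.67 in pair 2, against 0.00 and 0.01 over all tested genes. SLC6A9, a glycine transporter, was at 3.24 CPM in control 1 and 4.67 in invasive 1, with 2.60 in control 2 and 8.09 in invasive 2 (log2 fold change 1.08 ± 0.33, edgeR adjusted p = 0.183). SLC1A4, which carries neutral amino acids, was at 28.2, 35.4, 26.1 and 51.2 CPM in the same order (0.65 ± 0.17, adjusted p = 0.155). In both genes the invasive libraries lay above both controls. SLC3A2, the heavy chain shared by several exchangers, was at 201, 206, 258 and 418 CPM (0.36 ± 0.17, adjusted p = 0.33). SLC7A11, the cystine importer that pairs with it, was named after its values were seen: it was at 56.3, 53.0, 95.0 and 309 CPM, so that invasive 2 alone stood apart (0.83 ± 0.68, adjusted p = 0.637).

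**Figure D5:**
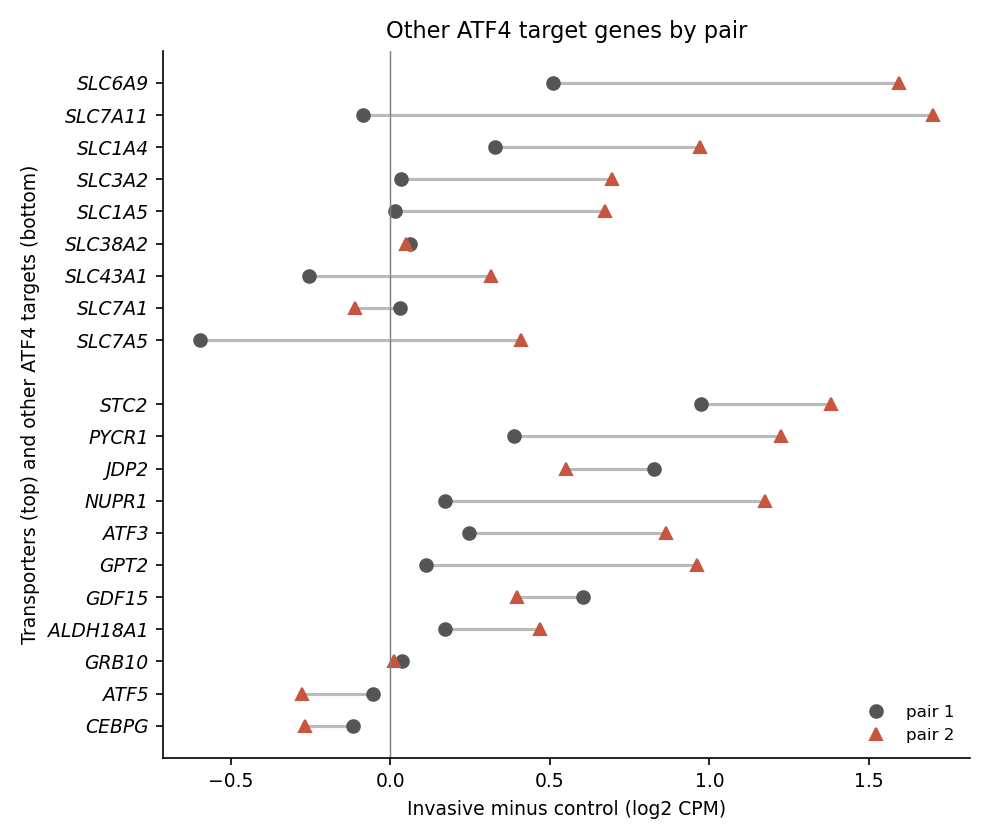
Log2 CPM difference, invasive minus control, in pair 1 (circles) and pair 2 (triangles) for 9 amino acid transporters (top) and 11 other ATF4 targets (bottom), joined by a line for each gene. STC2 is high in both pairs, SLC6A9 and SLC7A11 have their larger difference in pair 2, and 9 of the 11 other targets are above 0 in both pairs.

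Genes upstream of ATF4 and in neighbouring pathways were described in the same way, and none of them was called in the main edgeR fit. For comparison with the counts below, 9.82% of all tested genes were higher and 8.41% lower at the unadjusted threshold of 0.05. The 14 genes for eIF2 kinases, eIF2 phosphatase subunits and the exchange factor eIF2B had a median log2 fold change of 0.01, with 0 called in either direction and 0 higher and 1 lower at the unadjusted threshold (EIF2B5, the catalytic subunit of eIF2B, at −0.29 ± 0.10, edgeR adjusted p = 0.208). EIF2S1, the subunit of eIF2 that is phosphorylated, had −0.23 ± 0.11, and EIF2AK2, the kinase activated by double-stranded RNA, −0.15 ± 0.09. The 7 tested other folate enzymes had a median of −0.10, with 0 called and 1 lower at the unadjusted threshold: MTHFD2L, a mitochondrial relative of MTHFD2, at −0.34 ± 0.12 (adjusted p = 0.213). The cytosolic MTHFD1 had 0.13 ± 0.11 and the mitochondrial MTHFD1L −0.15 ± 0.10. The 13 endoplasmic reticulum stress targets of ATF6 and XBP1 had a median of 0.13, with 0 called and 2 higher at the unadjusted threshold. These were HERPUD1, which serves degradation of misfolded proteins, at 0.80 ± 0.26 (adjusted p = 0.247) and the co-chaperone DNAJB9 at 0.77 ± 0.21 (adjusted p = 0.163). XBP1 itself had 0.26 ± 0.16. HERPUD1 was at 41.0 and 51.7 CPM in control 1 and invasive 1 and at 45.03 and 108 CPM in control 2 and invasive 2, so invasive 2 was again the highest library.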

How the data were processed

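Polyadenylated RNA of 2 invasive and 2 control U87MG populations was sequenced from strand-specific libraries. The authors deposited raw read counts per Ensembl gene, per the file headers, and a normalized score per gene rounded to whole numbers, with no source here naming its method. The submitters' processing notes name the build GRCh38 and the tools TopHat2 2.0.12, HTSeq, bcl2fastq 1.8.4, DESeq2 and Bowtie, without roles. Each raw file of pair 1 listed 32100 genes and each of pair 2 listed 33485. The normalized files listed 32100 genes in pair 1 and 10252 in pair 2. The 29387 genes present in all 4 raw files were used. After edgeR's filterByExpr (minimum count 10, minimum total 15), 14231 genes were tested with edgeR's two-sided quasi-likelihood F test (edgeR 4.0.16, limma 3.58.1, R 4.3.3), with TMM factors, a robust prior and the pair as a block. P-values were adjusted by Benjamini-Hochberg over all tested genes at 0.05. The fit has 1 residual degree of freedom, a median prior of 5.45 degrees of freedom and a biological coefficient of variation of 12.2%.

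The pairing comes from the series' design text. Deviations from the group means correlated between the groups at 0.283, and libraries of a group were not duplicates (chi-square per degree of freedom 34.1 between controls and 21.3 between invasive populations). CPM are TMM-scaled counts per 1000000 counts, and differences within a pair are of log2 CPM with a prior count of 2 and no test. Exon lengths and overlaps come from GENCODE (GRCh38). The fit was run on counts simulated with the data's mean levels and the fit's own dispersion, to check that set fold changes were recovered. Such counts cannot show how well the p-values hold in the real libraries. DESeq2 1.42.0, no replicate block, other scalings and filters, other prior counts, the deposited scores and leaving out each library were tried as alternatives.

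The members and related lists were chosen with earlier results of these data known. Values in every library are given for ATF4, DDIT3 and ASNS, for members with an unadjusted p under 0.05 and for members with a log2 difference of at least 1 in either pair; CEBPB was added after its values were seen. From each related list, calls and up to 3 genes with the smallest p are named. Floors of 3 counts cover counting error only.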

Additional observations from a re-analysis of the deposited data

How the results depend on the processing

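With no replicate block, which ignores the pairing, 2 genes were higher and 0 lower against 34 and 5 with it, and 0 members were higher or lower. The median log2 fold change of the members stayed between −0.01 and 0.04 over the settings that used all libraries. Genes higher and lower numbered 80 and 9 with relative log expression factors, 164 and 18 with upper quartile factors, 142 and 29 with DESeq2, and 386 and 252 with TMM factors taken before the filter, a setting chosen after seeing the data. ALDH1L2 was the 1 member called in each of these 4. With no filter on low counts the numbers were 760 and 693, with 2 members higher (CHAC1 added, adjusted p = 0.0117) and 1 lower (NARS, adjusted p = 0.0249). The cause of these shifts was not tested. With 1 library left out, which also drops the block, 4 (without control 2) to 83 (without control 1) genes were higher and 0 (without control 2 or invasive 2) to 87 (without control 1) lower, 0 members were called in either direction, and the members' median was −0.12 (without invasive 2) to 0.11.

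The sign of 19 of 31 members changed when some library was left out, and that of 3 (DDIT4, PSAT1 and TRIB3) under another setting. The sign reversed, with a shift from the value of all libraries larger than the standard errors, without invasive 2 for ASNS (−0.12 to 0.84 over the libraries left out), TRIB3 (−0.69 to 0.55), GARS (−0.22 to 0.51), CTH (−0.17 to 1.29), SESN2 (−0.21 to 0.48), SLC3A2 (−0.16 to 0.85) and XBP1 (−0.30 to 0.76). It did so without control 2 for ATF4 (−0.26 to 0.12) and CEBPB (−0.89 to 0.45), without invasive 1 for PSAT1 (−0.34 to 0.30) and MTHFD1 (−0.10 to 0.35), and without control 1 for DDIT4 (−0.32 to 0.30). Prior counts of 0.5 and 10, library totals alone and the deposited scores left the members' median difference within a pair on its side of 0. The deposited scores of pair 2 covered 10252 genes only. At 50 to 124 counts per library, the precision of CHAC1 is limited by depth; CBS was too low to test.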
